A study of Mus musculus with 12 samples.

Results

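The 10 genes described here belong to the growth hormone and insulin-like growth factor (IGF) axis of the liver. They were Igf1, Igfbp1, Igfbp2, Igfbp3, Igfbp4, Igfals, Ghr, Socs2, Irs1 and Irs2. They were chosen by name, and where several probe sets carry a gene's name, the brightest on average was used. All 10 were found among the 12393 genes of the table. Levels are log2 values after robust multi-array averaging (RMA), so a difference of 1 is a doubling, and levels of different genes are not compared because each probe set has its own scale.

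Liver RNA of male C57BL/6 mice was hybridized to Affymetrix mouse arrays, with 12 arrays in 4 groups of 3. The wild type groups ate the normal diet (WT) or a diet with 150 mg of retinoic acid (RA) per kg (WT_RA). The other groups (KO and KO_RA) carried a deletion in the gene of retinoid X receptor α (RXRα) in hepatocytes and ate the same diets. All feeding lasted 7 days. Wild type mice were 12 weeks old per the methods. In KO mice a Cre recombinase under the albumin promoter removed the floxed exon for the DNA-binding domain, and a truncated protein with the ligand-binding domain was still made. Other liver cells keep RXRα.

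Growth hormone from the pituitary binds its receptor, encoded by Ghr, on hepatocytes and drives transcription of Igf1 through JAK2 and STAT5. Most circulating IGF-1 travels in a complex with IGFBP-3 and the acid-labile subunit, the product of Igfals. The smaller binding proteins IGFBP-1, IGFBP-2 and IGFBP-4 carry IGF outside that complex, and hepatic Igfbp1 is known to be repressed by insulin and raised by fasting. SOCS2 is an inhibitor in the feedback on the growth hormone receptor, and IRS-1 and IRS-2 pass the signal of the insulin and IGF-1 receptors into the cell.

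The arrays shared a scale, with medians of 6.26 to 6.35. WT_RA 3 and KO 1 stood apart: a 3' control for Actb read 9.40 and 9.12 there, against 12.1 to 12.9 elsewhere, and the members' calls are given with and without them. Hepatocyte markers were high, Alb at 13.9 on average, and their summed linear signal lay between 116872 and 136716 on all arrays. The targeted gene Rxra differed between KO and WT by -0.03 and -0.02 in its probe sets, and under RA by 0.61 and 0.58, none of which passed in limma. Whether these probe sets cover the deleted exon is not stated in the labels or the methods, so they give no check of the genotype.

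The changes that passed the test lay in the genes of 2 binding proteins. Igfbp1 was 4.43-fold higher in WT_RA than in WT and 4.17-fold higher in KO than in WT. Igfbp2 was 8.84-fold lower in KO than in WT and 7.32-fold lower in KO_RA than in WT_RA. The other 8 genes did not pass in any of the 4 comparisons of a pair of groups, among them the ligand gene Igf1 and the receptor gene Ghr.

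**Figure D1:**
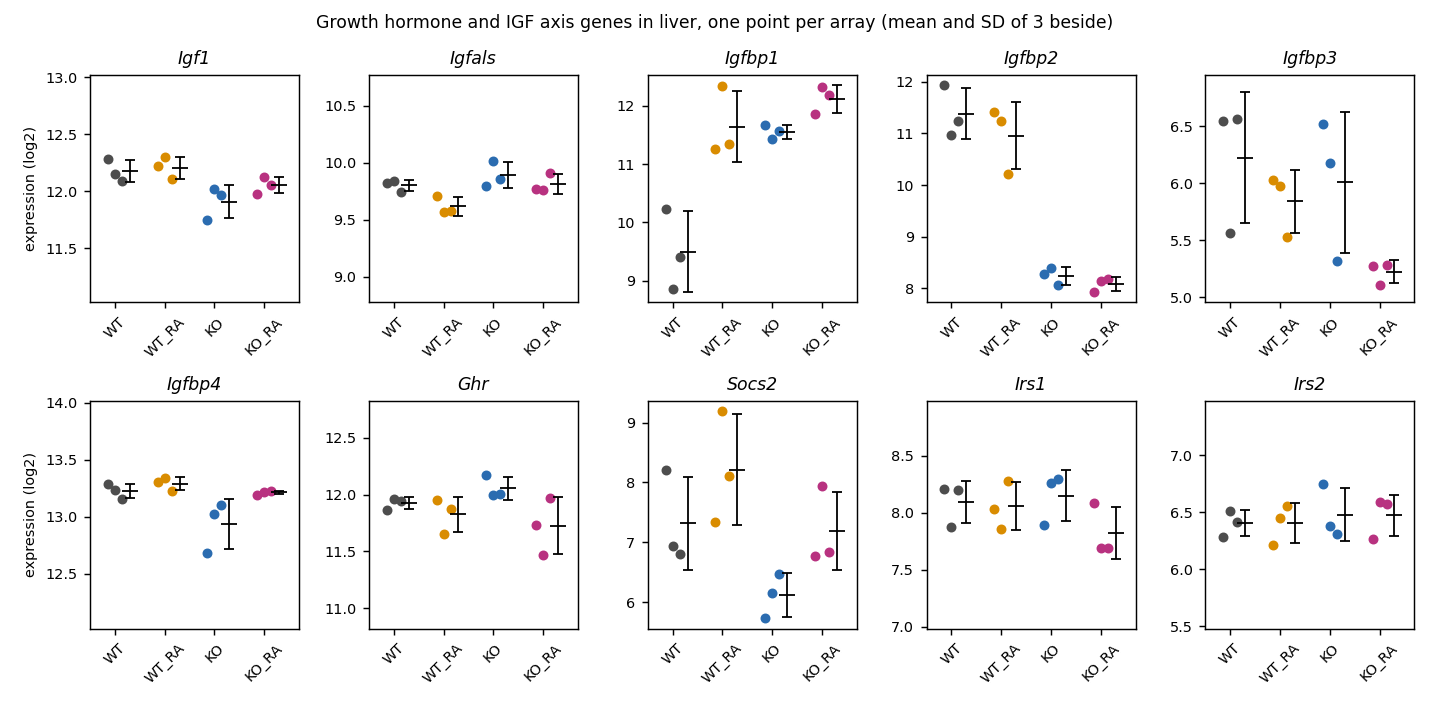
Log2 expression of the 10 genes, with 1 point per array and the mean and SD of the 3 arrays of each group beside the points. The axes of the panels differ in position and in span. WT lies below the other groups for Igfbp1, and KO and KO_RA lie below WT and WT_RA for Igfbp2.

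Igfbp1 read 10.23, 8.85 and 9.41 in WT and 11.25, 12.34 and 11.34 in WT_RA. It read 11.67, 11.43 and 11.57 in KO and 11.86, 12.32 and 12.18 in KO_RA. The 3 WT arrays were the lowest of all 12, and every array of the other groups lay above them. The order of the group means was KO_RA (12.12 ± 0.24, SD, n = 3), WT_RA (11.64 ± 0.61), KO (11.56 ± 0.12) and WT (9.50 ± 0.69). The arrays of neighbouring groups in this order overlapped except between KO and WT.

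RA in wild type mice asked what dietary RA changes when RXRα is present. Igfbp1 rose by 2.15 ± 0.33 (SE; 95% interval 1.44 to 2.86; limma adjusted p = 0.00966), and ranked 17 among the rises of all genes. It was the only member called, against 1.27% of all genes. The call was lost without WT 3 (2.11, adjusted p = 0.0502) and when only WT and WT_RA entered the fit (adjusted p = 0.0510). Over all alternatives it was called in 20 of 22 fits, with changes between 1.80 and 2.80. Without WT_RA 3 and KO 1 the rise was 2.30 (adjusted p = 0.0249).

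RXRα deficiency on the normal diet asked what depends on hepatocyte RXRα without added RA. Here 2 of the 10 members passed, against 1.32% of all genes. Igfbp1 rose by 2.06 ± 0.33 (adjusted p = 0.0120), with rank 9 among the rises, and was called in 22 of 22 fits. Without WT_RA 3 and KO 1 its rise was 2.01 (adjusted p = 0.0233).

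RA in KO mice left Igfbp1 at a difference of 0.56 ± 0.33 (adjusted p = 0.454), although the KO and KO_RA arrays did not overlap. Under RA the deficient mice read higher than wild type mice by 0.48 ± 0.33 (adjusted p = 0.490), and these arrays overlapped. The RA effect in KO mice minus that in wild type mice was -1.58 ± 0.46 (95% interval -2.59 to -0.58). This difference did not pass in limma (unadjusted p = 0.00496, adjusted p = 0.244). With array weights it was -2.26 and passed (adjusted p = 0.0239). Without the weights 1 of 12393 genes was called for this difference, or 0.00807%, and 1446 had an unadjusted p under 0.05, or 11.7%. With array weights 247 genes were called for it.

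Markers of Kupffer cells, the macrophages of the liver, read higher in the comparisons of a pair of groups where Igfbp1 was called, and not in the others. Of 11 measured, 11 read higher in WT_RA than in WT, with a median difference of 1.06, and 11 read higher in KO than in WT, with a median of 1.26. In these comparisons only Cd163 under RA in wild type mice passed (1.49, adjusted p = 0.00299). For RA in KO mice 0 of the 11 read higher, with a median of -0.53. In KO_RA minus WT_RA 1 of the 11 read higher, with a median of -0.35, and Cd163 was lower (-0.79, adjusted p = 0.0381). Igfbp1 read higher in both of these comparisons without passing. The summed linear signal of the list ranged from 1810 to 2143 in WT, from 3081 to 5773 in WT_RA, from 2565 to 11699 in KO and from 2938 to 3569 in KO_RA. The lowest value of the 11 on any array was 4.53 (Marco, with a mean of 4.76 in WT). This is a dim value, since the lower quartile of an array lay between 4.87 and 5.02. The other markers read at least 5.28 (Cd68) on every array. Within the KO group the list's median deviation was -0.38, 1.57 and 0.44 on arrays 1, 2 and 3, while Igfbp1 stayed between 11.43 and 11.67. RNA of whole liver cannot tell fewer cells of a type from less RNA per cell. The part of the Kupffer cell markers in the Igfbp1 result was not tested.

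The promoter of Igfbp1 is shown because the gene is the textbook case of an insulin-repressed promoter. The sequence is the 250 bases before the start of the RefSeq transcript (GRCm38.p6, chr11:7197537-7197786, plus strand), and the capitals mark the 18 letters of the palindrome-like stretch known as the insulin response element.
Igfbp1: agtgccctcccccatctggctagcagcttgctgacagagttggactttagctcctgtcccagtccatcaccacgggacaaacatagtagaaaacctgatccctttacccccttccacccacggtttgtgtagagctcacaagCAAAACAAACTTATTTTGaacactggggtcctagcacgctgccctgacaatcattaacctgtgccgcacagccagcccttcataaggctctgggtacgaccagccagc
The capitals lay 108 to 91 bases before the start. The 18 letters were found on either strand in 1 of 32851 windows of the same length, that of Igfbp1 itself. They were searched for because this window holds them, and a stretch of 18 letters seldom recurs elsewhere. The count therefore does not set this promoter apart. The core CAAAACAA alone, searched after the values were seen, was present in 2.21% of all windows and in those of 3 of the 9 members that had a window, namely Igfbp1, Irs1 and Irs2. Irs1 and Irs2 had no call in any of the 4 comparisons. Irs2 averaged 6.44 over the 12 arrays, too low for the filter on dim genes, which required 6.73. Whether the core CAAAACAA has a part in the values of Igfbp1, Irs1 or Irs2 was not tested.

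Igfbp2 read 11.94, 10.97 and 11.24 in WT and 11.42, 11.24 and 10.21 in WT_RA. It read 8.27, 8.39 and 8.06 in KO and 7.93, 8.15 and 8.18 in KO_RA. The 6 arrays of deficient mice all lay below the 6 of wild type mice, and the lowest wild type array, WT_RA 3, was still well above the highest deficient one. The group means were 11.38 ± 0.50 in WT (SD, n = 3), 10.96 ± 0.66 in WT_RA, 8.24 ± 0.17 in KO and 8.09 ± 0.14 in KO_RA. Within each genotype the diets overlapped.

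On the normal diet Igfbp2 fell by 3.14 ± 0.29 in KO mice (adjusted p = 0.000855), the largest fall of all 12393 genes in that comparison. Under RA it fell by 2.87 ± 0.29 (adjusted p = 0.000407), with rank 4 among the falls. It was the only member called under RA, against 3.95% of all genes. Both calls held in 22 of 22 fits, and without WT_RA 3 and KO 1 the falls were -3.16 (adjusted p = 0.000385) and -3.25 (adjusted p = 0.000118).

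RA itself moved Igfbp2 by -0.42 ± 0.29 in wild type mice (adjusted p = 0.682), and this value was 0.047 with array weights. In KO mice the difference of -0.15 was smaller than its SE. The difference between the RA effects, 0.27 ± 0.41, was also within its SE, and its sign changed in 4 of 21 fits. Averaged over the diets, RXRα deficiency moved Igfbp2 by -3.01 ± 0.21 (8.05-fold lower, adjusted p = 1.68e-05). In that average 2 members were called, against 5.34% of all genes, and Igfbp1 was the other, with a rise of 1.27 ± 0.23 (adjusted p = 0.00738). Averaged over the genotypes, RA raised Igfbp1 by 1.36 ± 0.23 (adjusted p = 0.0116), the only member called against 2.34% of all genes. Without WT_RA 3 and KO 1 these averages were -3.20 for Igfbp2 under RXRα deficiency (adjusted p = 1.05e-05), and for Igfbp1 1.16 under RXRα deficiency (adjusted p = 0.0311) and 1.46 under RA (adjusted p = 0.0236), all called.

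The promoter of Igfbp2 is shown for contrast with that of Igfbp1. It is the 250 bases before the first RefSeq start (GRCm38.p6, chr1:72824230-72824479, plus strand), and the capitals mark the CG dinucleotides.
Igfbp2: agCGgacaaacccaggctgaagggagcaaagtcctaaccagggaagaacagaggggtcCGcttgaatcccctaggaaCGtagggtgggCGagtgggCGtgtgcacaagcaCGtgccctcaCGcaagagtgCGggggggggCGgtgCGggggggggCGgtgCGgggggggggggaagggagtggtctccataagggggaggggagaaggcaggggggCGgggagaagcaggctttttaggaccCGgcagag
It held 14 CG dinucleotides and was 67.2% G or C, and the window of the other RefSeq start of Igfbp2 held 11 and was 56.4% G or C. The window of Igfbp1 held 5 and was 53.2% G or C. The medians over all windows were 6 and 52.4%. The DR1 element, a direct repeat of AGGTCA with a spacer of 1 base that RXRα binds with its partners, was in 0.0335% of all windows and in none of the members'. AGGTCA alone was in 14% of all windows, and among the members in those of Igf1 and Igfals. A missing match says only that these letters are not in these windows.

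Igfbp2 and Igfbp5 are neighbouring genes on chromosome 1, and Igfbp1 and Igfbp3 are neighbours on chromosome 11. Igfbp5, another IGF binding protein gene, read 0.51 ± 0.17 higher in KO than in WT and did not pass (adjusted p = 0.180). Igfbp3 is the gene of the main carrier of IGF-1 in blood. Its values were 6.55, 5.56 and 6.56 in WT and 6.02, 5.98 and 5.52 in WT_RA. They were 6.52, 6.18 and 5.32 in KO and 5.28, 5.11 and 5.29 in KO_RA.

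The 3 KO_RA arrays were the lowest for Igfbp3. Its signal was dim, with a mean of 5.82, and the KO_RA values lay close to the lower quartile of an array (4.87 to 5.02). KO_RA differed from KO by -0.78 ± 0.31 (adjusted p = 0.282) and from WT_RA by -0.62 ± 0.31 (adjusted p = 0.315), without overlap in either case. RA in wild type mice gave -0.38 ± 0.31 (adjusted p = 0.749), and 0.21 with array weights. The neighbours on both chromosomes thus did not share the calls of Igfbp1 and Igfbp2.

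Igfbp4, a binding protein that inhibits IGF action, was measured by 6 probe sets. The one used read 13.29, 13.24 and 13.16 in WT, 13.31, 13.34 and 13.23 in WT_RA, 12.69, 13.02 and 13.11 in KO and 13.20, 13.22 and 13.22 in KO_RA. The 3 KO arrays lay below all others. KO differed from WT by -0.29 ± 0.10 (adjusted p = 0.201), and KO_RA from KO by 0.28 ± 0.10 (adjusted p = 0.260). KO 1 was the lowest array, and without WT_RA 3 and KO 1 these differences were -0.16 and 0.15. All 6 probe sets had the same signs in these comparisons, from -0.58 to -0.12 and from 0.13 to 0.74, and none was called.

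Igf1, the ligand made by hepatocytes under growth hormone, read 12.29, 12.15 and 12.09 in WT and 12.22, 12.30 and 12.11 in WT_RA. It read 11.74, 12.01 and 11.96 in KO and 11.98, 12.12 and 12.06 in KO_RA. The KO arrays lay below the WT arrays without overlap, and KO 1 was the lowest. KO differed from WT by -0.27 ± 0.10 (adjusted p = 0.203), and by -0.19 without WT_RA 3 and KO 1. Averaged over the diets the difference was -0.21 ± 0.07 (unadjusted p = 0.00953, adjusted p = 0.0999). With array weights this average was -0.19 and passed (adjusted p = 0.0200).

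RA changed the Igf1 probe set used by less than its SE in wild type mice, and by 0.15 ± 0.10 in KO mice (adjusted p = 0.518). The further probe sets of Igf1 read higher under RA by 0.29 and 0.31 in wild type mice and by 0.37 and 0.68 in KO mice, none of them called. The average of RA over the genotypes ranged from 0.09 to 0.50 over the 3 probe sets, and with the most variable probe set in place of the brightest it passed (0.50, adjusted p = 0.0359). The probe sets of Igf1 therefore differed in size and not in sign.

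Igfals, the gene of the acid-labile subunit, read 9.82, 9.84 and 9.75 in WT and 9.71, 9.56 and 9.57 in WT_RA. It read 9.80, 10.02 and 9.86 in KO and 9.77, 9.76 and 9.91 in KO_RA. The WT_RA arrays were the lowest 3. WT_RA differed from WT by -0.19 ± 0.09 (adjusted p = 0.442), and KO_RA from WT_RA by 0.20 ± 0.09 (adjusted p = 0.258), both without overlap. After a further quantile normalization the average of RXRα deficiency over the diets, 0.14 in the data as deposited, was 0.23 and passed (adjusted p = 0.0432).

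Igfals was the only member with a STAT5 site, TTCNNNGAA, in its windows. These letters were in 7.02% of all windows, and in 2 of the 3 windows of Igfals, which had 1 for each RefSeq start. Both are shown with 8 flanking bases and the site in capitals, because STAT5 carries the growth hormone signal.
Igfals, chr17:24877608-24877616: tctataatTTCTCAGAAaagaggct
Igfals, chr17:24878173-24878181: gccaggtgTTCCTAGAAgaggccct
The sites lay 236 and 58 bases before their starts (GRCm38.p6, plus strand). No difference of Igfals passed in the fit as reported, so the sites stand beside values and no call.

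Ghr, the growth hormone receptor gene, lay between 11.86 and 11.96 in WT, between 11.66 and 11.95 in WT_RA, between 11.99 and 12.17 in KO and between 11.47 and 11.97 in KO_RA. KO was highest in its mean and KO_RA lowest, and the 2 groups did not overlap. KO_RA minus KO was -0.33 ± 0.12 (adjusted p = 0.257). The other differences between pairs of groups ranged from -0.10 to 0.13, each close to or within its SE of 0.12. All 3 probe sets read lower under RA in wild type mice, from -0.72 to -0.10, and lower for RA averaged over the genotypes, from -0.39 to -0.21, none of them called. For RA in KO mice 2 of the 3 probe sets read lower, by -0.33 and -0.46, and the other read 0.042. The signs also differed between the probe sets for KO minus WT, from -0.23 to 0.16, and for KO_RA minus WT_RA, from -0.10 to 0.54.

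Socs2, the feedback inhibitor, varied widely between arrays of a group, with an SD of 0.37 in KO to 0.93 in WT_RA. It read 8.21, 6.94 and 6.80 in WT, 7.34, 9.19 and 8.11 in WT_RA, 5.73, 6.15 and 6.48 in KO and 6.77, 7.94 and 6.84 in KO_RA. All 3 KO arrays lay below every other array. KO differed from WT by -1.20 ± 0.48 (adjusted p = 0.249) and from KO_RA without overlap, with KO_RA higher by 1.07 ± 0.48 (adjusted p = 0.347). In wild type mice WT_RA was higher by 0.90 ± 0.48 (adjusted p = 0.531), and these arrays overlapped.

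Averaged over the diets, RXRα deficiency moved Socs2 by -1.11 ± 0.34 (unadjusted p = 0.00672, adjusted p = 0.0822). This average passed without WT_RA 1 (-1.33, adjusted p = 0.0477), without KO_RA 2 (-1.30, adjusted p = 0.0469) and with array weights (-0.99, adjusted p = 0.0261). RA averaged over the genotypes gave 0.98 ± 0.34 (adjusted p = 0.194), which passed with array weights (1.02, adjusted p = 0.0400). With array weights Socs2 also passed for RA in wild type mice (1.35, adjusted p = 0.0405). A second probe set of Socs2 had the same signs, with 1.31 for RA in wild type mice, 1.13 in KO mice, -1.24 for KO minus WT and -1.43 for KO_RA minus WT_RA.

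Irs1 and Irs2 encode the adaptors of the insulin and IGF-1 receptors. Irs1 lay between 7.69 and 8.29 on all arrays, and its largest difference was RA in KO mice, -0.33 ± 0.16 (adjusted p = 0.376). RXRα deficiency under RA gave -0.23 ± 0.16 (adjusted p = 0.482), and the other comparisons of a pair of groups were within the SE for Irs1. Its difference between the RA effects was -0.29 ± 0.22 (adjusted p = 0.669), and RA averaged over the genotypes gave -0.18 ± 0.11 (adjusted p = 0.526). Irs2 lay between 6.21 and 6.75, and all its differences between groups were smaller than their SE of 0.14. The arrays of all groups overlapped for Irs1 and for Irs2.

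**Figure D2:**
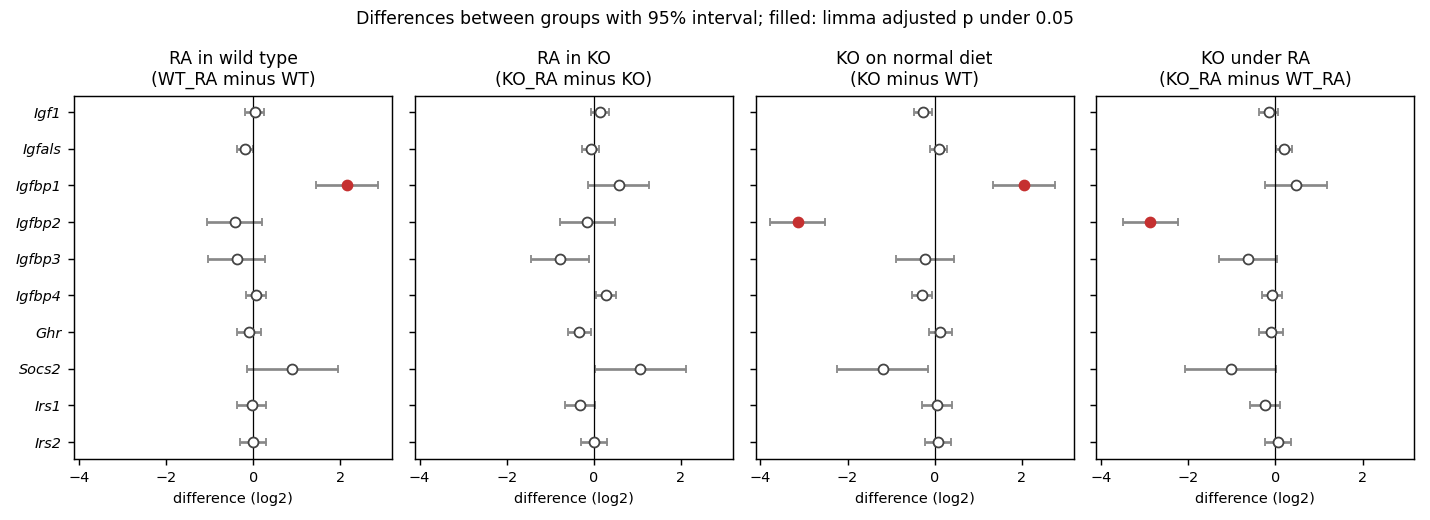
Differences in log2 expression between pairs of groups for the 10 genes, as points with 95% intervals from limma. Filled points had an adjusted p under 0.05. Igfbp1 is filled for RA in wild type mice and in KO minus WT, and Igfbp2 for KO on both diets.

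Over the 10 members, the median difference was -0.02 for RA in wild type mice (all genes -0.01), -0.08 for KO minus WT (0.02), -0.04 for RA in KO mice (-0.03) and -0.13 for KO_RA minus WT_RA (0.01). The arrays of WT and WT_RA did not overlap for 2 of the members, against 16.6% of all genes. The counts were 6 for KO and WT (20.1% of all genes), 5 for KO and KO_RA (20.9%) and 4 for WT_RA and KO_RA (25.6%). The 6 on the normal diet were Igfbp1 and the Ghr probe set used, which read higher in KO, and Igfbp2, Igf1, Igfbp4 and Socs2, which read lower. For RA in KO mice no member passed, against 0.5% of all genes, and 4 had an unadjusted p under 0.05 (Igfbp3, Igfbp4, Ghr and Socs2), against 14% of all genes. The comparisons share groups, so their counts are not independent of each other.

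**Figure D3:**
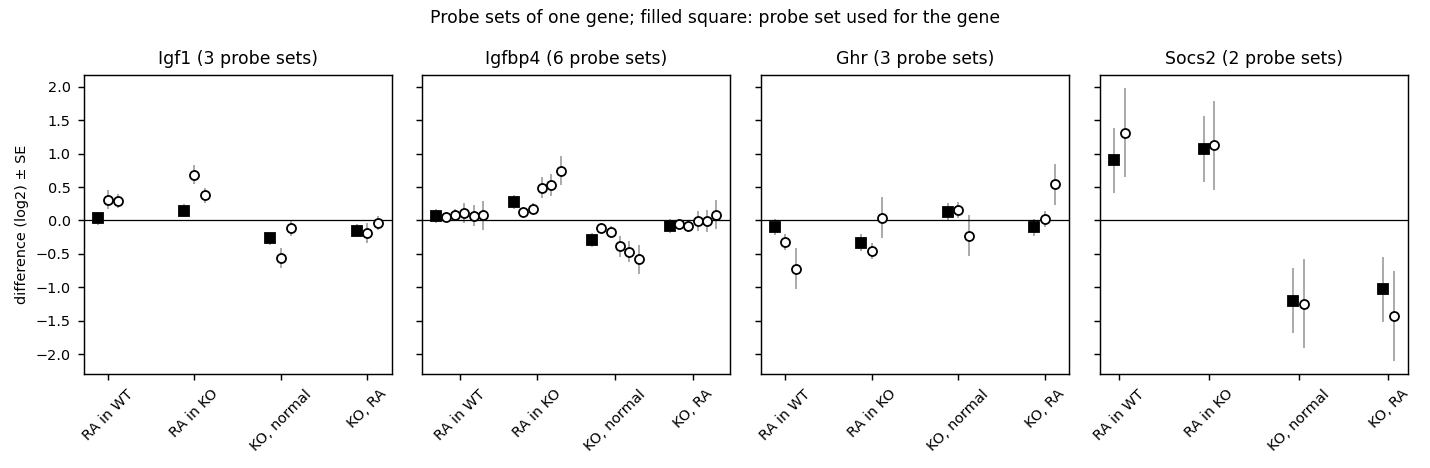
Difference in log2 expression ± SE for each probe set of the 4 members that had more than 1, in the 4 comparisons of a pair of groups. Filled squares mark the probe set used. The probe sets of Igf1 and Socs2 share their signs in each comparison, and those of Ghr share theirs only for RA in wild type mice.

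The genes with the profile nearest to a called member were found by the root mean square difference over the 12 arrays, after each gene was centred on its own mean. For Igfbp1, which deviated from its mean by 1.08 in the same measure, they were Gadd45g (0.485), Skil (0.572) and Apoa4 (0.575). Gadd45g is a stress-inducible gene, Skil encodes a repressor of TGF-β signalling, and Apoa4 encodes an apolipoprotein. Skil rose by 1.56 and Apoa4 by 1.05 under RA in wild type mice (adjusted p = 0.0203 and 0.0255), and Apoa4 rose by 1.88 in KO on the normal diet (adjusted p = 0.00114). Gadd45g was 1.87 and 1.93 higher in these comparisons and did not pass.

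For Igfbp2, which deviated by 1.55, the nearest were Cyp2c29 (0.586), a cytochrome P450 gene, Acaa1b (0.666), a peroxisomal thiolase gene, and Ces1g (0.696), a carboxylesterase gene. In KO minus WT they differed by -2.09, -2.56 and -1.94, and in KO_RA minus WT_RA by -2.75, -3.28 and -2.10, with adjusted p of at most 0.0230. The genes near Igfbp1 and Igfbp2 were chosen for their likeness, so their changes are a description.

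**Figure D4:**
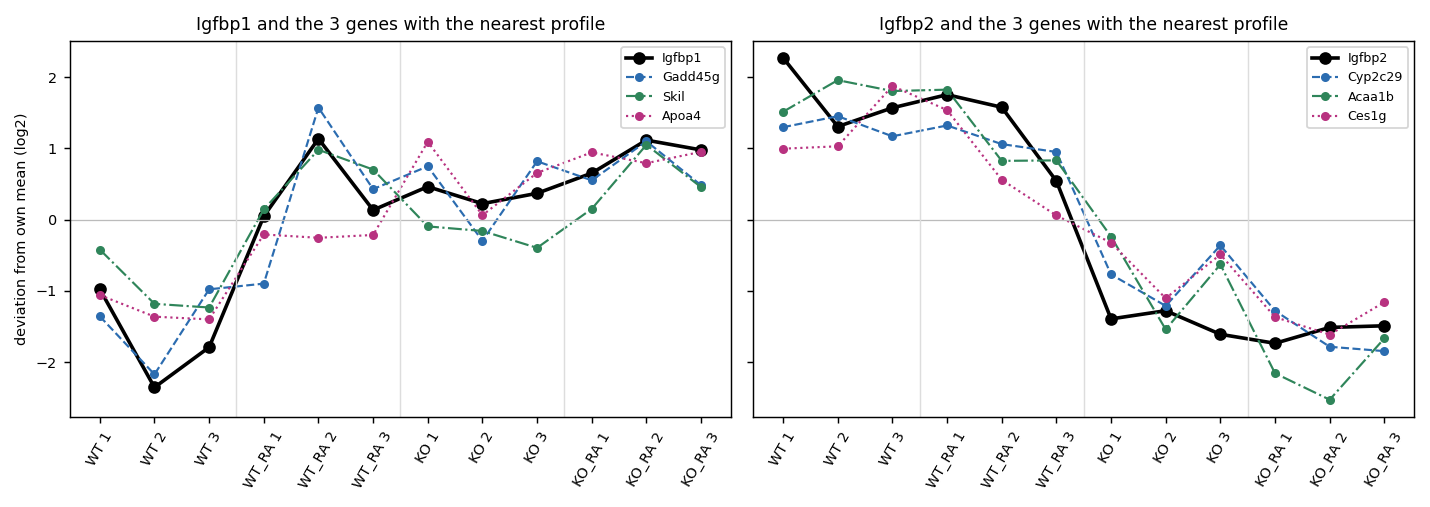
Deviation of log2 expression from each gene's own mean on the 12 arrays, for Igfbp1 (left) and Igfbp2 (right) with the 3 genes of nearest profile each. Lines join arrays only to guide the eye. Igfbp1 lies lowest on the 3 WT arrays, and Igfbp2 drops between the wild type and the KO arrays.

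The rest of the growth hormone receptor pathway was described from a list of 18 measured genes. None passed under RA in either genotype (medians 0.05 in wild type and -0.02 in KO mice) or between KO and WT (median 0.05). Under RA the adaptor gene Shc1 was higher in KO mice by 0.46 ± 0.09 (adjusted p = 0.0184), a call lost without WT_RA 3, KO_RA 1 or KO_RA 3 (adjusted p up to 0.0869). Stat3, a transcription factor of cytokine and growth hormone signalling, rose by 0.54 ± 0.10 with RA averaged over the genotypes (adjusted p = 0.0129), but with the mean of its probe sets the adjusted p was 0.220. Jak2, Stat5b and Socs3, picked after their values were seen, did not pass in any comparison. Jak2, the kinase gene of the receptor, averaged 7.92 in WT, 8.27 in WT_RA, 8.17 in KO and 7.76 in KO_RA (SE of a difference 0.16). Its sign differed between the genotypes under RA, and KO_RA minus WT_RA was -0.51 (unadjusted p = 0.00785, adjusted p = 0.109). Stat5b, a transcription factor gene, averaged 7.85, 7.82, 7.44 and 7.71 in the same order (SE 0.17). Socs3, another feedback inhibitor gene, averaged 7.23, 9.60, 9.08 and 8.71, with 2.37 ± 0.62 for RA in wild type mice (adjusted p = 0.101) and 1.85 ± 0.62 for KO minus WT (adjusted p = 0.174).

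Among 14 other genes of the IGF system, Igfbp7 fell by 1.19 ± 0.18 under RA in KO mice (adjusted p = 0.0203). Igfbp7 encodes a secreted protein related to the IGF binding proteins that is made largely by vascular cells. The call was lost without KO 2, KO 3, KO_RA 2 or KO_RA 3 (adjusted p up to 0.0788). Endothelial markers had a median of -0.11 in the same comparison, and 1 of 12 passed, Tek (-0.99, adjusted p = 0.0184). Their summed linear signal ranged from 2360 to 2774 in KO and from 2132 to 2213 in KO_RA, and their part in the result was not tested. No other gene of the list passed in the comparisons of a pair of groups, and its medians were -0.07 for RA in wild type and also in KO mice, 0.09 for KO minus WT and 0.06 for KO_RA minus WT_RA.

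Of 25 genes of insulin receptor signalling, Shc1, also on the first list, was the only one to pass, and the medians were -0.06 and 0.05 for RA in wild type and KO mice, -0.08 for KO minus WT and 0.04 for KO_RA minus WT_RA. Since Igfbp1 is insulin-responsive, 17 liver genes that respond to insulin or fasting were set beside it. The list mixes genes that insulin raises, such as Fasn, with genes that it lowers, such as Pck1. Its median and its counts therefore give no direction of an insulin or fasting response. In KO mice on the normal diet 1 of them fell, Cebpb, a transcription factor gene of gluconeogenesis (-0.87 ± 0.18, adjusted p = 0.0423), and the median was -0.32 against 0.02 for all genes. The Cebpb call was lost in 10 of 12 fits that left out 1 array (adjusted p up to 0.159), and held without WT_RA 2 and without WT_RA 3. In this comparison 7 of the 17 read higher in KO and the others lower. An unadjusted p under 0.05 in limma was found for 12 of the 17, against 16.3% of all genes. The genes named next, G6pc, Pck1, Angptl4, Ppargc1a and Pdk4, were picked after their values were seen. G6pc and Pck1, which encode enzymes of gluconeogenesis, averaged 8.05 and 11.87 in KO against 10.05 and 12.39 in WT without passing (adjusted p = 0.119 and 0.226). Pdk4, which encodes a kinase that is raised by fasting and inhibits pyruvate dehydrogenase, read higher in KO by 0.68 ± 0.26 without passing (adjusted p = 0.236). Pdk4 also read higher under RA, by 1.13 ± 0.26 in wild type mice (adjusted p = 0.0671) and by 1.14 ± 0.26 in KO mice (adjusted p = 0.0800), and the average of RA over the genotypes passed (1.13 ± 0.19, adjusted p = 0.00990).

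Under RA in KO mice 15 of the 17 read higher, genes of both kinds among them, with a median of 0.51 against -0.03 for all genes. Cebpb rose by 1.14 ± 0.18 (adjusted p = 0.0252) and Tat, which breaks down tyrosine, by 0.92 ± 0.16 (adjusted p = 0.0376). Each call was lost without any of KO 2, KO 3, KO_RA 2 or KO_RA 3, that of Cebpb also without KO_RA 1 and that of Tat also without KO 1. For RA in wild type mice none of the 17 passed, and the median was -0.02. Under RA, KO mice had higher Acaca (0.52) and Pklr (1.04) and lower Creb3l3 (-0.59) than wild type mice, with adjusted p of 0.0232, 0.0358 and 0.0184. The Acaca and Creb3l3 calls were lost without WT_RA 1, WT_RA 3 or KO_RA 1, that of Acaca also without KO_RA 3 and that of Creb3l3 also without KO_RA 2. The Pklr call was lost without any of WT 2, WT_RA 1, WT_RA 2, WT_RA 3, KO 3, KO_RA 1 or KO_RA 3 (adjusted p up to 0.151). These genes act in fatty acid synthesis, glycolysis and the fasting response.

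Growth hormone pulses also set the sex pattern of liver genes, and RA moved the median of 12 male-biased genes by -0.57 in wild type and -0.61 in KO mice. In wild type mice Elovl3, Hsd3b5 and Cyp4a12a fell and Obp2a rose. In KO mice Elovl3 and Gstp1 fell, and the 14 female-biased genes had medians of 0.35 and 0.48 in these comparisons with Trim24 as the gene that rose in each. RXRα deficiency on the normal diet gave medians of -0.02 for the male-biased and 0.12 for the female-biased genes, where Elovl3 fell and Sult1e1 rose. Under RA the medians were 0.02 and -0.03, with Obp2a, Cyp2b10 and Trim24 lower and Sult1e1 higher in KO mice. Several of these calls did not hold when 1 array was left out, in some cases an array outside the comparison. Those of Hsd3b5 and Cyp4a12a were lost when KO 3, WT_RA 2, WT_RA 3 or any WT array was left out, that of Cyp4a12a also without WT_RA 1, KO 2 or KO_RA 1. Under RA in KO mice the call of Elovl3 was lost without KO 3 or KO_RA 2, that of Trim24 without KO 1, KO 3 or KO_RA 2, and that of Gstp1 without KO 2, KO 3 or any KO_RA array, and the Sult1e1 rise in KO on the normal diet did not pass without WT 1 (adjusted p = 0.0531). Ghr and Igf1 had no call beside these shifts.

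**Figure D5:**
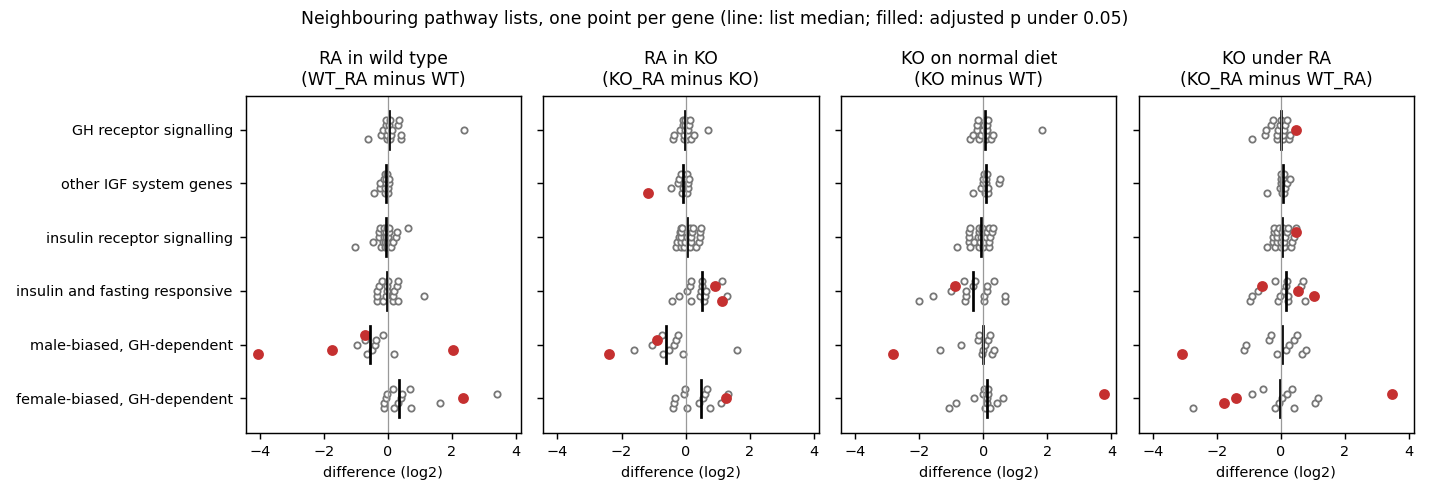
Differences in log2 expression of the genes of 6 lists around the axis, with 1 point per gene, a line at the list's median and filled points for an adjusted p under 0.05. The insulin and fasting responsive genes, which mix genes raised and genes lowered by insulin, lie mostly to the right for RA in KO mice (median 0.51). The male-biased genes lie mostly to the left for RA in both genotypes (medians -0.57 and -0.61).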

How the data were processed

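Liver RNA of 12 mice was measured, 1 array per mouse. The authors deposited log2 values, 1 per probe set and array. The submitters' processing notes name RMA and Partek 6.11, and the paper's methods name MAS5 with a detection filter. Scanner files were not used here. Of 22690 probe sets, 20380 had 1 gene symbol, 691 several and 1555 none in the platform annotation. The probe set with the highest mean stood for its gene, which left 12393 genes with no filter.

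Groups and replicate numbers came from the sample titles. limma 3.58.1 in R 4.3.3 was fitted over all genes and 12 arrays (lmFit, eBayes, two-sided, 8 residual degrees of freedom), with Benjamini-Hochberg adjustment over all genes of a comparison and a call at an adjusted p under 0.05. Errors are SE with n = 3 arrays per group unless named SD. The p-values measure the spread between arrays, and their number limits the precision.

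The members, the gene lists and the marker lists (hepatocyte, Kupffer, endothelial, stellate, cholangiocyte, T or NK, neutrophil and B cell) were chosen with earlier results of these data known. The genes named by rule were the members, up to 4 called genes of a list per comparison, and the 3 genes nearest to each called member. Others were named outside this rule. Jak2, Stat5b, Socs3, G6pc, Pck1, Angptl4, Ppargc1a and Pdk4 were picked after their values were seen, and Igfbp5 was named as the neighbour of Igfbp2. Promoters were RefSeq windows of GRCm38.p6, found for 9 of 10 members and not for Socs2. Protein sequences were not used here. Alternatives were a replicate block, other probe set rules, centring, a further quantile normalization, a filter on dim genes, another variance model, array weights, only the groups compared, and leaving out arrays.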

Additional observations from a re-analysis of the deposited data

Results flagged for a closer look

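Obp2a, an odorant-binding protein gene on the list of male-biased genes, rose by 2.04 under RA in wild type mice (limma adjusted p = 0.000219) and differed by -0.36 under RA in KO mice without passing. It is set apart by the test of that difference. The RA effect in KO mice minus that in wild type mice was -2.39 (limma adjusted p = 0.00503), the only gene of 12393 called for that difference. Obp2a averaged 5.31 in WT, 7.35 in WT_RA, 4.63 in KO and 4.28 in KO_RA. The KO and KO_RA averages lay below the lower quartile of every array (4.87 to 5.02), where a fall may not show. The filter on dim genes kept only genes with a mean of at least 6.73 and so left out Obp2a itself. Its 0 calls for the difference therefore do not test this result. No member of the growth hormone and IGF axis passed for it in the fit as reported.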

How the results depend on the processing

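The 10 members gave 1496 values under the alternatives. Of these 1414 kept their sign and their side of the threshold, 2 lost a call (both Igfbp1 for RA in wild type mice), 9 gained one and 71 changed sign, 0 of them among called members. Among differences of at least their SE 6 changed sign. They were Ghr with the most variable probe set for KO minus WT (-0.23), RA in KO mice (0.042) and the difference between genotypes (0.77), Ghr for that difference with the mean of its probe sets (0.13), and Igfbp2 (0.047) and Igfbp3 (0.21) for RA in wild type mice with array weights. Smaller differences printed with a sign also changed sign: that of Igfbp2 between the RA effects ranged from -0.13 to 0.50 and that of Ghr for KO_RA minus WT_RA from -0.23 to 0.54. With array weights the members called were 2 for RA in wild type mice, 1 for the difference between genotypes, 2 for RA averaged over the genotypes and 4 for RXRα deficiency averaged over the diets. With the most variable probe set 2 were called for RA averaged over the genotypes. For RA in wild type mice 0 were called when only the groups compared were fitted, and 0 to 1 when 1 array was left out. Among the members the filter on dim genes left out Igfbp3 and Irs2. Over all genes the calls for RA in wild type mice ranged from 47 without WT 3 to 1070 with array weights, against 158. For RXRα deficiency they ranged from 51 to 1734 on the normal diet, against 163, and from 170 to 1064 under RA, against 490. For RA in KO mice they ranged from 6 to 303, against 62, and for the difference between genotypes from 0 to 247, against 1. The 0 came from the filter on dim genes, which left out Obp2a, the gene called. For RA averaged they ranged from 151 to 1010, against 290, and for RXRα deficiency averaged from 403 to 2370, against 662. The causes were not tested.

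Replicate numbers did not pair the arrays: deviations of same-numbered arrays correlated between -0.458 and 0.266, with 5 of 18 above 0.1, and other pairs between -0.323 and 0.347. With the replicate block the members called were the same in number in each comparison, with adjusted p of 0.0279 and 0.0334 for Igfbp1 and of 0.00152 and 0.000964 for Igfbp2. Over all genes the block gave 113 calls for WT_RA minus WT and 98 for KO minus WT.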

Other observations

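Some marker lists were not yet described, or not for KO minus WT. Of 12 endothelial markers 9 read higher in KO than in WT, with a median of 0.27, and none passed. Of 11 stellate cell markers 10 read higher in KO than in WT, with a median of 0.18, and none passed. T or NK cell markers read higher in 6 of 6 there, with a median of 0.21, and none passed. The medians of cholangiocyte, neutrophil and B cell markers in that comparison were 0.05, 0.16 and 0.13, with no call. Those that read higher were 3 of 5, 6 of 6 and 3 of 4. Under RA in wild type mice the summed linear signal of 6 neutrophil markers ranged from 401 to 1054, against 287 to 407 in WT. Their median difference was 0.04, and none passed. The higher sums came from S100a8 (4.87 in WT and 7.12 in WT_RA) and S100a9 (6.43 and 7.96). Camp, Ngp, Elane and Mpo hardly differed. Among endothelial markers Stab2, a scavenger receptor of liver sinusoids, was higher by 0.62 with RXRα deficiency averaged over the diets (limma adjusted p = 0.0310).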
